A study of Mus musculus with 2 samples.

Results

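The 5 microRNA (miRNA) genes described here, Mir431, Mir433, Mir127, Mir434 and Mir136, lie on mouse chromosome 12 on the strand opposite the imprinted gene Rtl1. They were chosen by name and position, through identifiers matched to GENCODE release M21, from tables that list 1973 miRNA genes. Of the 5 genes, 4 have a row of their own in the tables. Mir136 has none, and its position is treated separately at the end of the account of levels. The 2 libraries are small RNA libraries (under 30 nucleotides) from the whole hindbrains of 2 newborn B6NCrl mice, pup 1 and pup 3, at an age of 0 day. Neither pup carries a stated allele or treatment, both carry the same donor identifier, and sex was not collected. There is 1 group and no second condition, so the data give levels and the spread between 2 pups.

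Rtl1 is a gene derived from a retrotransposon and is expressed from the paternal chromosome, where it is known for its role in the placenta. The miRNAs on the other strand come from a maternally expressed noncoding transcript of the Dlk1-Dio3 imprinted region. Because each of these miRNAs is complementary to the Rtl1 message along its whole length, it can direct cleavage of that message in the manner of a small interfering RNA, besides acting on other messages through its seed. miR-127 and miR-136 are well-known brain miRNAs, and miR-431 has been studied in axon growth of sensory neurons. The counts carry no information on parent of origin, and Rtl1 messenger RNA was not measured by this assay.

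The mature sequences are shown first because they define which messages each miRNA can bind. Reads were counted per gene, so the arms of a gene cannot be told apart in the counts and no arm has a level of its own. All 5 genes matched an entry in RefSeq's miRNA records (assembly GRCm38.p6). Each sequence runs 5′ to 3′, with the seed, bases 2 to 8, in capitals.
miR-431-5p: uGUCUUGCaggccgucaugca
miR-431-3p: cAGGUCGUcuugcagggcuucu
miR-433-5p: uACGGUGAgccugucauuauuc
miR-433-3p: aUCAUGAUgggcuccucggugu
miR-127-5p: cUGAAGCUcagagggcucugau
miR-127-3p: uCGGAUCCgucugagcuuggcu
miR-434-5p: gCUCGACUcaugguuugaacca
miR-434-3p: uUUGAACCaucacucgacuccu
miR-136-5p: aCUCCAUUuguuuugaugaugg
miR-136-3p: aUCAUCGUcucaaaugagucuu

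The 10 arms carry 10 distinct seeds, so no pair of these genes shares a seed. None of the 10 seeds occurs as the seed of another of the 1679 mature miRNA names in the same records. The 5 genes are thus neighbours by position and not a seed family. Exact copies of the mature sequences were found in GENCODE M21 transcripts at their own genes, and their exact complements at Rtl1. The exception is Mir136, whose arms also have their complement in Mir3071, the miRNA gene annotated over it on the other strand. No 20-base stretch of the precursors of Mir431, Mir433, Mir127 or Mir434 recurs in another annotated miRNA precursor on either strand. The search covered exact stretches in annotated miRNA precursors only. Copies with mismatches and copies elsewhere in the genome were not searched, so whether reads of these 4 genes were split or lost was not tested.

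All 5 hairpins lie inside exon 2 of Rtl1, the exon that holds its whole coding sequence of 5232 bases (coordinates on GRCm38, the assembly of mm10). Rtl1 occupies chromosome 12, 109589193 to 109600330, on the minus strand, and the 5 hairpins are on the plus strand. Mir431 (ENSMUSG00000070080.1) is at 109590447 to 109590537 and Mir433 (ENSMUSG00000070072.1) at 109591715 to 109591838. Mir127 (ENSMUSG00000070076.2) is at 109592846 to 109592915 and Mir434 (ENSMUSG00000070133.1) at 109594506 to 109594599. Mir136 (ENSMUSG00000104858.1) is at 109595327 to 109595388. From the first base of Mir431 to the last of Mir136 the group spans 4942 bases, with gaps of 1177, 1007, 1590 and 727 bases between neighbours. Read along the Rtl1 message, the order is reversed: Mir136 lies opposite codons 6 to 26, Mir434 opposite codons 269 to 300, Mir127 opposite codons 830 to 853, Mir433 opposite codons 1189 to 1230 and Mir431 opposite codons 1623 to 1653. The complement of each of the 5 hairpins matched the Rtl1 transcript over its full length.

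**Figure D1:**
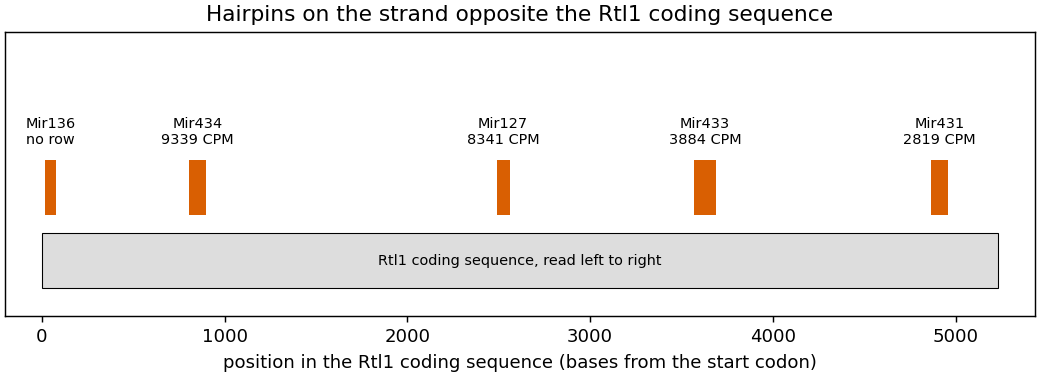
Position of each miRNA hairpin (orange) along the Rtl1 coding sequence (grey), in bases from the start codon, with the mean level of 2 pups in CPM (counts per 1000000 miRNA gene counts) above it. The hairpins are spread from codon 6 to codon 1653, and Mir136, nearest the start codon, has no row in the tables.

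Each mature arm had 1 full-length complementary site in the Rtl1 transcript, and all 10 sites fell in the coding sequence. As an example, the sites of both miR-127 arms and of miR-433-3p are given as they stand in the Rtl1 message, 5′ to 3′ in DNA letters, with the bases that face the seed in capitals. The miR-127-3p site covers bases 2495 to 2516 of the coding sequence, counted from the start codon, the miR-127-5p site bases 2529 to 2550 and the miR-433-3p site bases 3602 to 3623.
miR-127-3p site: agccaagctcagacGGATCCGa
miR-127-5p site: atcagagccctctgAGCTTCAg
miR-433-3p site: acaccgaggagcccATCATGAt

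The 7 letters facing the seed were also searched along the whole Rtl1 transcript of 6358 bases, on the message strand only. Because a full-length site contains these letters, each arm has at least 1 match by construction. For miR-434-3p these letters (GGTTCAA) occurred 4 times, for miR-434-5p (AGTCGAG) 3 times and for miR-431-5p (GCAAGAC) 3 times. Of these, 3, 2 and 2 matches lay opposite the miRNA's own hairpin, the full-length site included. miR-431-3p (ACGACCT) and miR-136-5p (AATGGAG) had 2 matches each. For miR-136-3p and both arms of miR-127 and of miR-433 the only match was the full-length site itself. Among 1882 protein-coding transcripts within 10% of the length of Rtl1, 23.3% held GGTTCAA at least once, 8.66% held AGTCGAG and 36.3% held GCAAGAC. These shares count transcripts with any match and are no background for the number of matches in Rtl1. A match is a description of the letters and does not show binding.

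The hairpins differed in length and base composition. Mir433 was the longest at 124 bases and Mir136 the shortest at 62. GC content ran from 40.3% in Mir136 and 45.7% in Mir434 to 56.5% in Mir433, 57.1% in Mir127 and 60.4% in Mir431. The predicted fold of lowest energy (RNAfold) had -43.4 kcal/mol for Mir431, -44.8 for Mir433, -35.1 for Mir127, -37.4 for Mir434 and -28.2 for Mir136. The Mir434 hairpin is shown because it belongs to the most abundant counted gene and because seed matches of its own arms recur on the strand opposite it. Its arms are in capitals.
Mir434 hairpin: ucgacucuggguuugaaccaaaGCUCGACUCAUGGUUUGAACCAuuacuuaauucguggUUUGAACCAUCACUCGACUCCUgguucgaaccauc

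Levels are given in CPM, which are the own-strand reads of a gene out of every 1000000 own-strand reads on all miRNA genes of the library, with totals of 4906127 in pup 1 and 6238680 in pup 3. The labelled tissue was checked against markers: the hindbrain miRNA genes Mir10a and Mir10b averaged 28396 and 14983 CPM, and neuronal Mir137 averaged 11351 CPM. Of 9 neural marker genes 8 had a row and 5 reached 2 CPM in both pups. Mir128-1 averaged 3587 CPM, Mir128-2 1649 CPM and Mir9-3 462 CPM, while Mir124a-1, Mir124a-2, Mir124a-3 and Mir9-2 were all under 15 CPM in both pups. Reads at several genomic places, as multi-copy genes can give, are counted for no gene. Whether this has a part in the levels of these markers was not tested. Markers of other cell types were also present, with blood genes summing to 0.120% of counts in pup 1 and 0.0804% in pup 3, and muscle genes to 0.0185% and 0.0170%, with 3 of 6 muscle genes at 0 in both pups. Vessel genes, mostly Mir126a, took 5.53% and 6.55%, more than the 5.21% and 3.47% of both hindbrain genes together. The part of vessel RNA in the values of the antisense-Rtl1 genes was not tested. The liver gene Mir122 averaged 44.9 CPM. In bulk tissue, fewer cells of a type and less RNA per cell cannot be told apart.

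All 4 counted genes were abundant, between rank 26 and rank 70 by mean CPM among the 1973 genes, where 407 genes reached 2 CPM in both pups. Together they held 121917 own-strand counts in pup 1 and 149208 in pup 3. That was 2.48% of miRNA gene counts in pup 1 (exact Clopper-Pearson 95% interval 2.47 to 2.50) and 2.39% in pup 3 (2.38 to 2.40), a mean of 2.44% ± 0.0660 (SD, n = 2). The intervals cover counting error only and take each read as a separate molecule.

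Mir434 was the most abundant of the counted genes. It had 9755 CPM in pup 1 (95% interval 9668 to 9842, from 47857 counts) and 8924 CPM in pup 3 (8850.0 to 8998, from 55672 counts), a mean of 9339 ± 588 CPM (SD, n = 2). It was the 27th most abundant gene in pup 1 and the 23rd in pup 3. Pup 1 was the higher on this scale.

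Mir127, whose miRNA is known for repressing Bcl6, followed closely. Its level was 8470.0 CPM in pup 1 (8389 to 8552, from 41555 counts) and 8212 CPM in pup 3 (8141 to 8283, from 51232 counts), a mean of 8341 ± 182 CPM. The coefficient of variation between the 2 pups (SD over mean) was 2.19%. The lower of the Mir434 values lay above the higher of the Mir127 values, so the pair did not overlap, and Mir434 exceeded Mir127 by 1.15 times in pup 1 and 1.09 times in pup 3.

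Mir433 and Mir431 stood lower. Mir433 had 3770 CPM in pup 1 (3716 to 3824, from 18494 counts) and 3998 CPM in pup 3 (3948 to 4048, from 24941 counts), a mean of 3884 ± 161 CPM. It was the one counted gene with the higher CPM in pup 3. Mir431 had 2856 CPM in pup 1 (2809 to 2903, from 14011 counts) and 2783 CPM in pup 3 (2742 to 2825, from 17363 counts), a mean of 2819 ± 51.4 CPM. The Mir127 level was 2.25 times that of Mir433 in pup 1 and 2.05 times in pup 3, and Mir433 was 1.32 and 1.44 times Mir431.

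The order Mir434, Mir127, Mir433, Mir431 was therefore the same in both pups, and in none of the 3 pairs of neighbours did the ranges over the pups overlap. The order was not tested. Adapter ligation captures small RNAs unequally, so an order of counts need not be an order of molecules. The same sequence of genes is their order on the chromosome from right to left. It does not extend to the right of Mir434. There Mir432, a plus-strand miRNA gene that is not a member, had 0 CPM in both pups. The row over Mir136, described below, averaged 1379 CPM. Within the 4 genes, Mir434 made up 39.3% of the counts in pup 1 and 37.3% in pup 3, Mir127 34.1% and 34.3%, Mir433 15.2% and 16.7%, and Mir431 11.5% and 11.6%. The shares of Mir127 and Mir431 had overlapping counting intervals between the pups, and those of Mir434 and Mir433 did not.

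**Figure D2:**
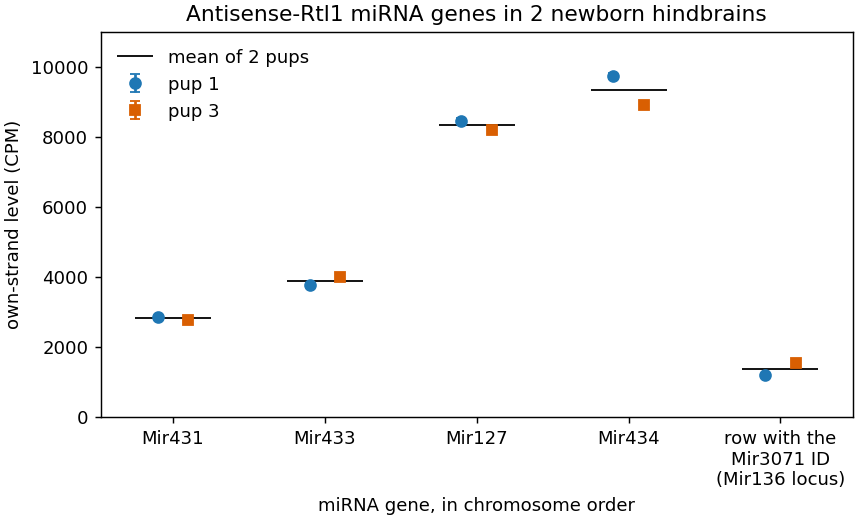
Own-strand level (CPM) of the counted genes in pup 1 (circles) and pup 3 (squares), in chromosome order, with exact 95% counting intervals (mostly smaller than the symbols) and the mean of both pups as a line. Levels climb from Mir431 at 2819 CPM to Mir434 at 9339 CPM. The last position, the row over Mir136 that carries the Mir3071 identifier, is lower at 1379 CPM. Mir432, between Mir434 and Mir136, had 0 CPM in both pups and is not shown.

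Mir136 could not be given a level of its own. A row over its position carries an identifier that M21 assigns to Mir3071, a miRNA gene annotated on the minus strand at 109595318 to 109595397, which contains the Mir136 hairpin. Both hairpins are shown, arms in capitals, because their arms lie almost exactly opposite each other: miR-136-5p overlaps miR-3071-3p by 20 bases and miR-136-3p overlaps miR-3071-5p by 19 bases.
Mir136 hairpin: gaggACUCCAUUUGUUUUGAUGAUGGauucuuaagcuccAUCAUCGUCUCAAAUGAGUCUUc
Mir3071 hairpin: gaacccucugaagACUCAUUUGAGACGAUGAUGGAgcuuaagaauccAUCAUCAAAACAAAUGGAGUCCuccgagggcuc

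That row held 5897 own-strand counts in pup 1 and 9702 in pup 3, or 1202 and 1555 CPM (mean 1379 ± 250 CPM, SD, n = 2), with 1 and 2 counts on the opposite strand. The row has version 1 of the identifier and M21 has version 2, and the strand that the authors' annotation (release M4) gave to version 1 is not known from the sources used here. The counts may thus be of either miRNA, and they were not added to Mir136. The 4 other rows of the region that M21 puts on the minus strand, each over a plus-strand miRNA gene without a row, showed the reverse split. Mir299b had 2 and 3 own-strand counts against 3052 and 3995 opposite ones, and the rows over Mir380, Mir376a and Mir409 had 0 own-strand counts in both pups and between 9281 and 75304 opposite ones.

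On the Rtl1 strand no reads were counted over the 4 genes. The opposite-strand count was 0 for Mir431, Mir433, Mir127 and Mir434 in both pups. Given the counts at each gene, a count of 0 allows an opposite-strand share of up to 0.0214% for Mir431 in pup 1, the least covered case, and 0.00539% for Mir434 in pup 3, the most covered. Over all miRNA genes, opposite-strand counts were 3.02% of gene counts in pup 1 and 3.39% in pup 3. The 4 minus-strand rows over Mir299a, Mir380, Mir376a and Mir409 gave 48.2% and 56.1% of those opposite-strand counts, and without them, a choice made after seeing the data, the shares were 1.59% and 1.52%. The libraries hold RNA of under 30 nucleotides, so an intact Rtl1 message would not be counted.

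The 2 libraries were compared gene by gene by an exact two-sided binomial test, with the expected split of a gene's counts set by library sizes scaled with TMM (trimmed mean of M-values), over the 508 genes with at least 10 counts in sum. The test compares these libraries with counting error only and has no estimate of the spread between pups. A gene was called where its Benjamini-Hochberg adjusted p was below 0.05 and the pups differed at least 2-fold. By that rule 0 of the 4 antisense-Rtl1 genes were called, where 34 of 508 genes (6.69%) were. At any fold, 3 of the 4 passed the adjusted p (also 3 at an unadjusted p under 0.05), all higher in pup 3 on this scale, against 47.6% of the tested genes, 121 in each direction. The 97 genes with at least 1000 CPM in both pups include the 4 and are closer to them in depth. By the 2-fold rule 2 of these 97 were called, both lower in pup 3. At any fold 59 of them passed as higher in pup 3 and 32 as lower.

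The largest difference was in Mir433, whose log2 difference (pup 3 minus pup 1) was 0.22, with an SE from counting of 0.01 (adjusted p = 1.05e-56, exact binomial test). Mir431 had 0.10 with an SE of 0.02 (adjusted p = 2.26e-09, exact binomial test) and Mir127 had 0.09 with an SE of 0.01 (adjusted p = 3.47e-22, exact binomial test). Mir434 had 0.0099 with an SE of 0.01 (adjusted p = 0.392, exact binomial test). These directions rest on the scaling. On library totals, which move the median of the tested genes by -0.13, Mir431, Mir127 and Mir434 turned to -0.037, -0.045 and -0.13, and Mir433 kept its sign at 0.08. On DESeq2 size factors all 4 were positive, from 0.10 for Mir434 to 0.31 for Mir433. The adjusted p of Mir434 also rests on the scaling. It was 2.55e-45 on library totals and 2.4e-28 on DESeq2 size factors (exact binomial test). The one direction common to the 3 scalings was thus that of Mir433.

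Set beside the abundant miRNA genes, the 4 differed little between pups, though not less than many of them. The 97 abundant genes used here include the 4 themselves. Of the 97 genes with at least 1000 CPM in both pups, the median absolute log2 difference was 0.25 on TMM scaling, and the 4 ran from 0.01 to 0.22 with a median of 0.10, a range that 42 of the 97 did not exceed. On library totals the corresponding medians were 0.23 and 0.06, and on DESeq2 size factors 0.31 and 0.19, where Mir433 was itself at the median of the 97. The coefficient of variation between pups was 1.82% to 6.29% for the 4 genes, against a median of 11.1% over the 97, of which 27 were at or under 6.29%. The hindbrain markers, in contrast, were lower in pup 3, with log2 differences of -0.25 for Mir10a and -0.85 for Mir10b. Whether the difference in these markers has a part in the values of the antisense-Rtl1 genes was not tested.

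**Figure D3:**
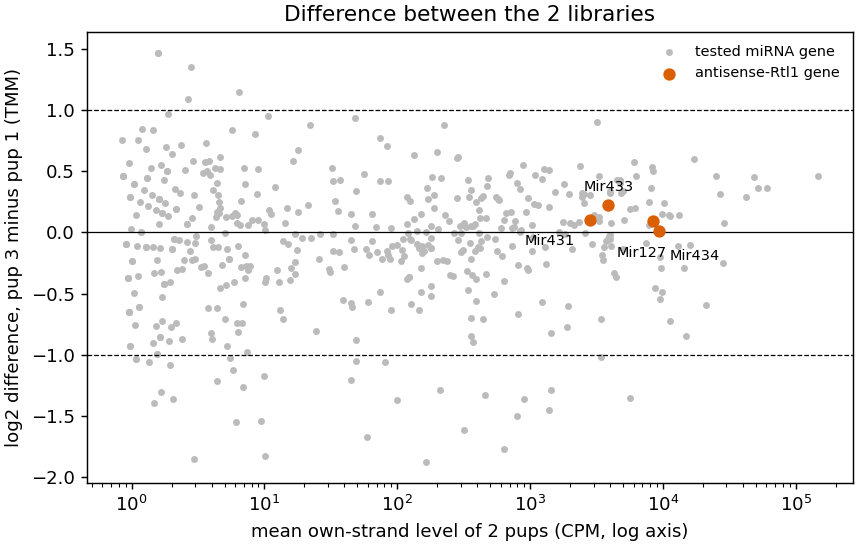
Log2 difference between the pups (pup 3 minus pup 1, TMM scaling) against mean level (CPM, log axis) for the 508 tested miRNA genes, with the 4 antisense-Rtl1 genes in orange and dashed lines at a 2-fold difference. The 4 genes lie between 0.01 and 0.22, and on library totals 3 of them fall below 0.

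The remaining miRNA genes of the Dlk1-Dio3 region were taken as 2 lists. Of 15 genes listed around the group, from Mir770 in Meg3 to Mir370, 14 had a row and 12 reached 2 CPM in both pups. Mir3072 was put in this list but lies beyond Mir410. Their median level was 205 CPM, against 6112 CPM for the 4 antisense-Rtl1 genes. The highest were Mir770 at 3443 ± 1390 CPM, Mir370 at 1832 ± 138 CPM, the row with the Mir3071 identifier, and Mir341 at 1274 ± 237 CPM. Mir432 is annotated within Rtl1 between Mir434 and Mir136, on the plus strand, so it also lies antisense to Rtl1. It is not among the members chosen here and is part of the median of this list. Mir432 had 0 counts in both pups. At these depths a count of 0 allows a level of 0.611 CPM in the first pup and 0.481 CPM in the other. Of the 13 tested genes 0 were called by the 2-fold rule, against 6.69% of all 508 tested genes. At any fold 3 of the 13 were higher and 1 lower in pup 3, against 47.6% of the 508 in either direction.

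Of the 38 genes of the Mir379 to Mir410 cluster, 33 had a row and 30 reached 2 CPM in both pups, with a median of 389 CPM. By own-strand counts the highest were Mir487b at 48749.7 ± 7545 CPM, Mir382 at 9816 ± 50.7 CPM, Mir411 at 8061 ± 899 CPM and Mir369 at 7831 ± 419 CPM. Opposite-strand counts are outside this ranking, and those of the row over Mir376a would equal 7254 CPM for pup 1 and 12070.5 CPM for pup 3. Of the 30 tested, 2 were called, both lower in pup 3. Over all 508 tested genes 34 (6.69%) were called, 29 of them lower in pup 3. At any fold, 14 of the 30 were higher and 6 lower on TMM scaling, against 47.6% of the 508 in either direction. The 2 called genes of the cluster, named after their values were seen, were Mir668 (492 CPM in pup 1 and 145 CPM in pup 3) and Mir541 (4735 and 2118 CPM). The median log2 difference was 0.09 in this cluster and 0.10 in the 4 antisense-Rtl1 genes. It was -0.02 over all 508 tested genes and 0.10 over the 97 genes with at least 1000 CPM in both pups, sets that include the 4. The range was wider in the cluster, from -1.61 to 0.58. It covers 30 genes against 4, many of them at lower levels, and a range grows with the number of genes.

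The 4 antisense-Rtl1 genes held 19.0% of the own-strand counts of the 51 listed miRNA genes of the region in pup 1 and 17.0% in pup 3. Mir487b alone went from 43415 CPM in pup 1 to 54085 CPM in pup 3. Leaving it out, the shares were 28.4% and 27.6%. As a share of all miRNA gene counts, the 51 genes took 13.1% in pup 1 and 14.1% in pup 3. Opposite-strand counts are outside these shares. The 4 minus-strand rows over Mir299a, Mir380, Mir376a and Mir409 held 73559 such counts in pup 1 and 122659 in pup 3. Adding them to the region would lower the share of the 4 antisense-Rtl1 genes in it.

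**Figure D4:**
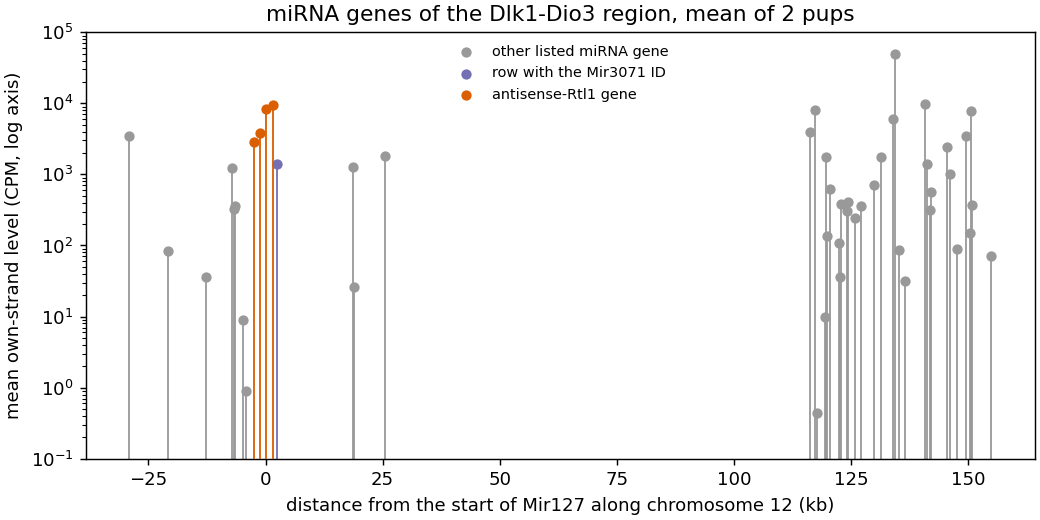
Mean own-strand level of 2 pups (CPM, log axis) of the listed miRNA genes of the Dlk1-Dio3 region against distance from the start of Mir127 (kb), for genes with at least 1 count. The 4 antisense-Rtl1 genes (orange) reach 2819 to 9339 CPM, and Mir487b at 48749.7 CPM is the highest point of the region.

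Imprinted miRNA genes on other chromosomes were taken as a further list, and all 5 reached 2 CPM in both pups. Mir335, in the imprinted gene Mest, had 27018 ± 2349 CPM, Mir298 3785 ± 371 CPM, Mir296 3004 ± 8.81 CPM and Mir483, in Igf2, 288 ± 27.9 CPM. Mir675, processed from H19, averaged 7.22 CPM. None of the 5 was called by the 2-fold rule with the exact binomial test, and at any fold 2 were higher and 1 lower in pup 3. Over all 508 tested genes the shares were 6.69% by the 2-fold rule and 47.6% at any fold.

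The genes with levels most like each member over the 2 libraries were found by Euclidean distance on log2(CPM + 1). For Mir431 they were Mir296 (distance 0.13), Mir361 and Mirlet7f-2. For Mir433 they were Mir379 (0.08), Mir151 and Mir15a. For Mir127 they were Mirlet7d (0.13), Mir369 and Mir411, and for Mir434 they were Mir382 (0.14), Mir204 and Mir17. Of these 12 genes 4 lie in the Mir379 to Mir410 cluster: Mir379, Mir369, Mir411 and Mir382. With 2 libraries the measure mostly reflects a like level, and the share of this cluster among all genes of such levels was not counted.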

How the data were processed

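Small RNA of 2 newborn hindbrains was sequenced, 1 library per pup. The authors deposited 1 table of raw read counts per library, with a row per miRNA gene and columns for reads on either strand, the sense strand and the antisense strand. The deposited notes give mm10 and annotation release M4. Which aligner and counter were used is not given in the sources used here. Rows that name no gene (58.3% of the reads in pup 1, 54.9% in pup 3, including 37.9% and 39.4% at several genomic places) stayed out of totals and tests.

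Identifiers were matched without version to GENCODE M21 (GRCm38): 1894 of 1973 matched. TMM scaling used edgeR 4.0.16, the alternative size factors DESeq2 1.42.0, tests and intervals scipy 1.17.1 and folds RNAfold 2.7.2. Log2 differences have a pseudocount of 1 CPM. edgeR's quasi-likelihood test could not be fitted with 1 library per pup. The binomial test was tested on simulated counts with known changes. P-values measure these 2 libraries only. All 5 members are named, with up to 4 genes of highest mean CPM per list, the 3 nearest genes per member, and any gene that shares a seed. Members and lists were chosen with earlier results of these data known.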

Additional observations from a re-analysis of the deposited data

Results flagged for a closer look

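The row over Mir136 that carries the Mir3071 identifier holds signal outside the counted members. Its mean own-strand level was 1379 CPM over the 2 pups, far above the 0.611 and 0.481 CPM that a count of 0 allows. It was set apart because it belongs to none of the 4 genes that were compared. The strand it was counted on was not tested, since the annotation release used for counting is not used here.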

How the results depend on the processing

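The share held by the 4 counted genes ran from 2.39% to 2.48% when either pup was left out. It was 2.36% on counts from either strand, 2.86% with the most abundant miRNA gene left out of the total, and 2.58% with the row of the Mir3071 identifier added, an alternative chosen after seeing the data. The 3 gaps between neighbours held under TMM sizes, DESeq2 size factors, either-strand counts and the total without the most abundant gene. Each of these settings rescales the 4 genes of a pup alike. The order within a pup could therefore not change, and only the gaps could. With 1 pup no range over pups exists. The count of 0 members called by the 2-fold rule held under the alternatives of scaling, filter and strand. It became 3 on TMM scaling when no fold was asked for. With no fold, Mir434 also passed on library totals and on DESeq2 size factors, with opposite signs. Library totals reversed Mir431 (-0.037), Mir127 (-0.045) and Mir434 (-0.13). Over all genes, 34 were called, against 18 with at least 100 counts in sum and 242 with no fold asked for; 5 of the 34 were higher in pup 3, against 8 on DESeq2 size factors and 0 with at least 100 counts. Opposite-strand counts at the members were 0 in either pup. No paired analysis was possible because there is 1 group. With 2 pups, the spread between animals is poorly known.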
